A study of Mus musculus with 18 samples.

Results

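Matrix metalloproteinases (MMPs) are zinc-dependent proteases that cut collagens, elastin, gelatin and many other proteins outside the cell, and most are made as proenzymes that stay inactive until the propeptide is removed. Tissue inhibitors of metalloproteinases (TIMPs) bind the active site of MMPs and block it. Leukocytes are known to use these proteases to cross basement membranes and to release signalling molecules held by the matrix, and eosinophils are known as a source of the gelatinase MMP9 in inflamed airways. The 9 genes described here are the proteases *Mmp8*, *Mmp9*, *Mmp12*, *Mmp14*, *Mmp19* and *Mmp25* and the inhibitors *Timp1*, *Timp2* and *Timp3*, found by their symbols. They are 9 of 55029 gene identifiers in the count files of one layout and 9 of 54232 in those of the other.

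RNA was sequenced from mouse eosinophils in 18 libraries, 3 for each of 4 stimuli and 6 of unstimulated cells. The cells came from the peritoneal cavity of C57BL/6 mice of the *Il5* transgenic line NJ.1638, whose excess of interleukin 5 raises eosinophil numbers, so every group, unstimulated cells included, came from transgenic animals. T cells and B cells had been taken out by beads against Thy1.2 and B220, and the remaining cells were kept for 18 h in medium alone or in medium to which heat-inactivated *E. coli*, IFN-γ, both of these, or IL-4 had been added. Age is not given. The study calls the libraries of a group biological replicates without saying whether they came from separate animals, so the p-values measure the spread between these libraries. The question the study put was how stimuli of Type 1 surroundings, bacteria and IFN-γ, and of Type 2 surroundings, IL-4, change the cells.

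The libraries with *E. coli*, IFN-γ or both and unstimulated libraries a to c share a file layout, called the first set here, and unstimulated libraries d to f share the other with the libraries of IL-4, called the second set. Comparisons were made within a set, so those of the first set with unstimulated cells share libraries a to c and are not independent of each other. In the first set the counts on genes were 2419241, 1562034 and 2211861 in unstimulated libraries a, b and c, and 2318235, 2734041 and 1980073 in *E. coli* libraries 1 to 3. They were 1859508, 2006059 and 1654831 with IFN-γ, and 1523808, 1970637 and 1719468 with IFN-γ and *E. coli*. The second set was deeper, with 3625036, 6482289 and 5294968 counts in unstimulated libraries d, e and f and 5121421, 5909700 and 3827767 with IL-4. Levels are given as counts-per-million values (CPM), a gene's count scaled to a common total of counts on genes in each library, and 3 counts in a library, the smallest number taken here as different from 0, are 1.10 to 1.97 CPM in the first set and 0.463 to 0.828 CPM in the second. These floors cover counting error only, and the 95% intervals of fold changes below also take in the spread between libraries.

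The highest count of any gene was 4089 to 4095 in the libraries of the first set and 87377 to 191131 in those of the second. The highest count of any of the 9 genes was 867 and 1485. Levels in CPM are therefore not compared between the sets. Some libraries stood apart from the others of their group, and results that change without one of them are given with and without it. In the first set the chi-square per gene between replicates was 6.04 and 5.02 for IFN-γ and *E. coli* library 3 against libraries 1 and 2, and 2.66 between those. It was 3.76 and 4.6 for *E. coli* library 3 against libraries 1 and 2, and 1.64 between those, and 4.58 and 4.50 for unstimulated library b against libraries a and c, and 2.49 between those. In the second set, unstimulated library e stood apart from libraries d and f: the chi-square per gene between replicates was 23.7 for d against e, 22.0 for e against f and 7.86 for d against f.

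In the study purity was checked by flow cytometry, and most of the cells that were not eosinophils are described as lymphocytes. Here RNA of other cells was looked for with marker genes. The summed level of 9 eosinophil markers was 4260, 5190 and 4370 CPM in unstimulated libraries a, b and c, and it was 3720, 3410 and 3610 CPM with *E. coli*, 3910, 3500 and 4110 CPM with IFN-γ and 2940, 2680 and 2760 CPM with both. It was 5140, 5590 and 5290 CPM in unstimulated libraries d, e and f and 5160, 5330 and 5140 CPM with IL-4. No eosinophil marker was at 0 in a group, and *Alox15* or *Ccr3* was the most abundant. Counts of these 2 genes reached 3732 and 3576 in the first set, near the highest count of any gene, and the sums were not corrected for such a ceiling. Markers of other cells were also found, with 10 peritoneal macrophage markers summing to 728 to 1520 CPM in the first set and 1840 to 2780 CPM in the second. Whether the RNA of these markers came from other cells or from eosinophils was not tested. Markers of T cells, 6 genes, summed to 2.87 to 16.9 CPM over all libraries, and 5 markers of dendritic cells to 3.63 to 18 CPM. The eosinophil markers moved in different directions. With both stimuli *Siglecf* changed in log2 by −1.55, *Il5ra* by −1.28, *Prg2* by −1.13 and *Alox15* by −0.60. *Ccr3* changed by 0.10 and *Ear6* by 0.52. With IL-4, where the sums were alike, *Ccr3* changed by −0.72, *Siglecf* by 0.39, *Il5ra* by 0.60, *Prg2* by 0.83 and *Ear6* by 1.34. A lower level in such libraries can come from fewer cells of a type or from less RNA of a gene per cell, which cannot be told apart.

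A gene is called changed here where its adjusted p (edgeR's quasi-likelihood test, adjusted by Benjamini and Hochberg over all genes tested) was under 0.05, with no threshold on the fold. Of the 9 genes, 8 passed the filter on low counts in the first set and 7 in the second. *Timp3* passed in neither, and *Mmp19* was too low in the second set.

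**Figure D1:**
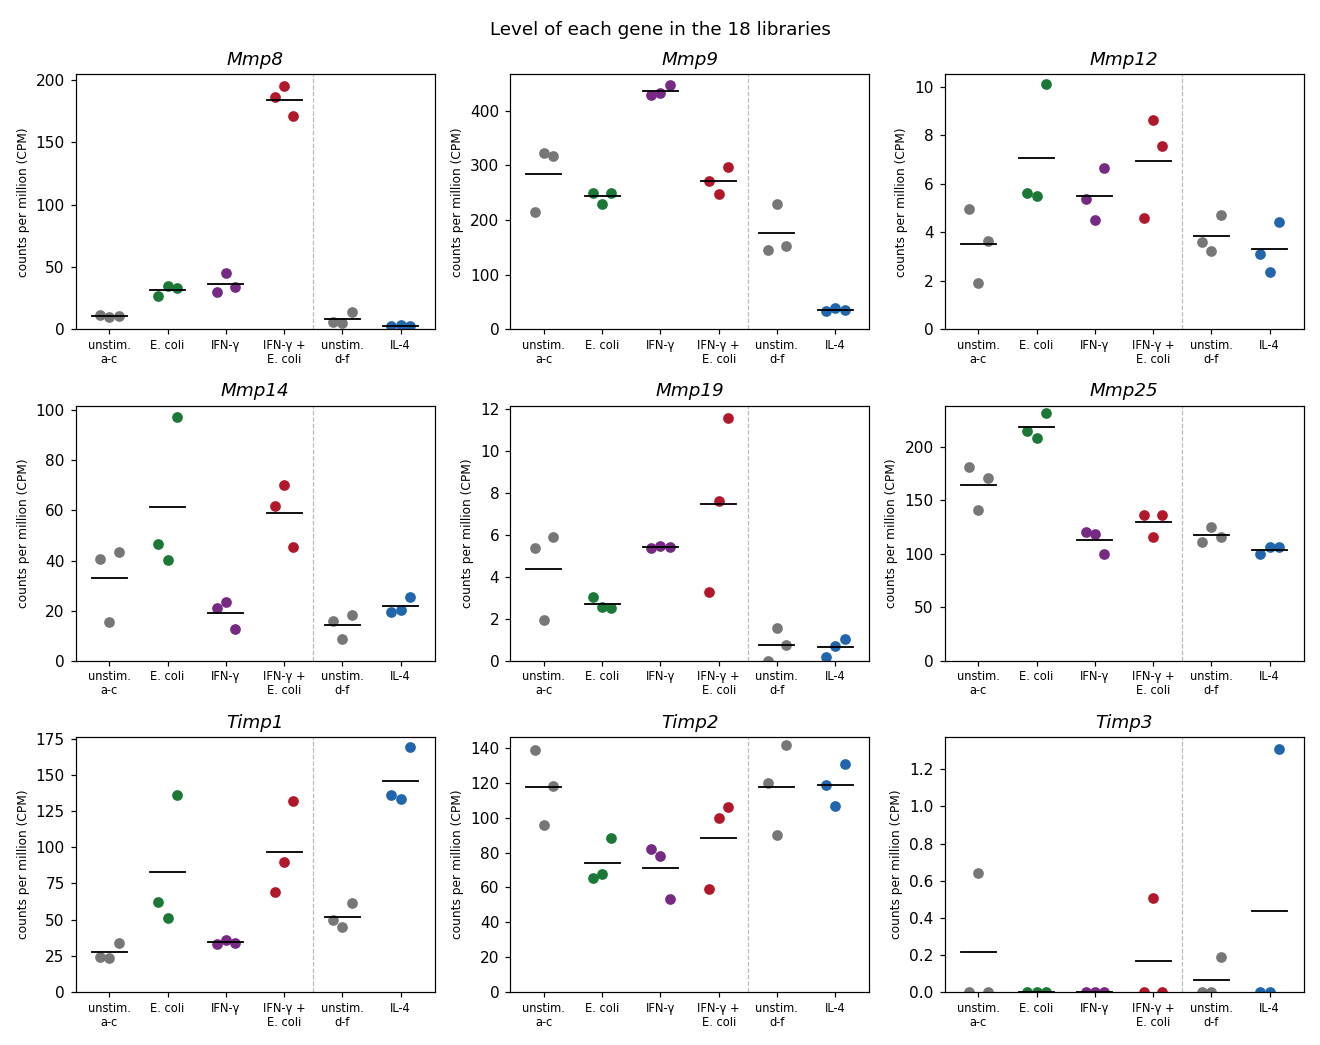
Level in CPM (vertical axis, from 0) of each of the 9 genes in each of the 18 libraries, by group (horizontal axis), with a point for a library, a line for the mean of a group and a dashed line between the sets. *Mmp8* stands at 171 to 195 CPM with IFN-γ and *E. coli* and at 10.2 to 11.2 CPM in unstimulated libraries a to c, and *Mmp9* at 33.0 to 38.6 CPM with IL-4 and at 146 to 229 CPM in unstimulated libraries d to f.

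With *E. coli*, 4 of the 8 tested genes were called higher, beside 13.5% of all 9883 genes tested, and 1 was called lower, beside 16.7%. IFN-γ left 2 called higher and 2 lower, beside 15.6% and 16.0% of all genes tested. The joint stimulus had 4 called higher and 0 lower, beside 23.9% and 25.2%. The median log2 fold change of the 8 genes was 0.64 for *E. coli*, 0.45 for IFN-γ and 1.01 for both, beside medians of −0.02, −0.03 and −0.04 over all genes tested. With IL-4, 1 of the 7 tested genes was called higher and 2 lower, beside 5.97% and 4.35% of the 10556 genes tested, and their median log2 fold change was −0.24 beside 5.74e-04. The IL-4 shares of all genes, also used for the gene lists below, depend on single libraries. Leaving out IL-4 library 1, 2 or 3 lowered the calls over all genes from 1089 to 483, 495 or 515. With so few genes, these shares and medians are a description of the family.

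Further comparisons set the stimuli of the first set against each other. When *E. coli* with IFN-γ was compared with IFN-γ alone, 3 of the 8 genes were called higher and 1 lower, beside 6.25% and 5.98% of all genes tested. The calls over all genes in that comparison fell from 1209 to 740 without IFN-γ library 1 and to 773 without IFN-γ and *E. coli* library 2. Against *E. coli* alone, the joint stimulus left 2 genes called higher and 1 lower, beside 17.5% and 15.3%. Between IFN-γ and *E. coli*, each alone, 4 genes were called in either direction, beside 25.5%. The median log2 fold changes of the 8 genes in these comparisons were 0.50, 0.43 and −0.04, beside medians of 0.01, −0.02 and −0.02 over all genes tested.

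*Mmp8* (ENSMUSG00000005800, chr9:7558456-7568485, plus strand, GRCm38) encodes neutrophil collagenase, which cuts fibrillar collagen and is stored in neutrophil granules. Its level was 11.2, 10.2 and 10.4 CPM in unstimulated libraries a, b and c, 26.7, 34.7 and 32.8 CPM with *E. coli* and 30.1, 44.9 and 33.8 CPM with IFN-γ. With IFN-γ and *E. coli* it was 186, 195 and 171 CPM. Every library with a single stimulus lay above every unstimulated library, the ranges of *E. coli* and IFN-γ overlapped, and the libraries with both stimuli lay far above all others. Relative to unstimulated cells the log2 fold change was 1.58 (SE 0.19, adjusted p 4.44e-06) with *E. coli*, 1.94 (SE 0.19, adjusted p 3.34e-07) with IFN-γ and 4.36 (SE 0.17, adjusted p 4.92e-13) with both, which are 2.99-fold, 3.85-fold and 20.5-fold rises. *Mmp8* was also higher with both stimuli than with IFN-γ alone (log2 fold change 2.41, SE 0.14, adjusted p 1.08e-09) and than with *E. coli* alone (2.78, SE 0.14, adjusted p 3.61e-11). IFN-γ against *E. coli*, each alone, gave 0.36 with an adjusted p of 0.106, and 0.49 with an adjusted p of 0.0445 without IFN-γ library 1.

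Since *Mmp8* is a gene of neutrophil granules, neutrophil markers are given beside it. The summed level of 10 neutrophil markers was 653, 718 and 631 CPM in unstimulated libraries a, b and c, 477, 465 and 498 CPM with *E. coli*, 659, 617 and 687 CPM with IFN-γ and 317, 383 and 384 CPM with both. *Retnlg* made up most of the sum in every group, *Ltf* was at 0 in unstimulated libraries a to c, and *Ltf* and *Ngp* were at 0 with both stimuli. *Elane* was at 0 with *E. coli*, and *Ltf*, *Mpo* and *Elane* with IFN-γ. Of the 4 markers tested, *Retnlg* changed in log2 by −1.02 after *E. coli*, 0.08 after IFN-γ and −0.90 after both. In the same order *S100a8* changed by 3.06, 2.20 and 2.71, *Ly6g* by −0.39, 2.27 and 1.63, and *Cxcr2* by 1.73, −1.76 and −0.73. The markers thus moved in different directions, and the part of neutrophil RNA in the rise of *Mmp8* was not tested.

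With IL-4 the change of *Mmp8* went the other way. Its level was 5.52, 5.09 and 14.0 CPM in unstimulated libraries d, e and f and 2.34, 3.22 and 2.87 CPM with IL-4. All IL-4 libraries were below all unstimulated ones, of which library f was by far the highest. The log2 fold change was −1.59 (SE 0.44, adjusted p 0.0441), a 3.01-fold fall. Without unstimulated library f it was smaller, at −0.99, and was not called (adjusted p 0.166). Without IL-4 library 1, 2 or 3 the call was also lost, with adjusted p-values of 0.175, 0.124 and 0.124. The value stayed about as large in those fits, at −1.46, −1.72 or −1.62.

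*Mmp9* (ENSMUSG00000017737, chr2:164940780-164955850, plus strand) encodes gelatinase B, which degrades denatured collagen and basement membrane collagen. In the first set its level was 214, 322 and 317 CPM in unstimulated libraries a, b and c, 249, 230 and 250 CPM with *E. coli* and 428, 432 and 446 CPM with IFN-γ. With both stimuli it was 271, 248 and 296 CPM. The IFN-γ libraries lay above all others of the set, while the libraries with *E. coli*, alone or with IFN-γ, lay inside the range of unstimulated cells. In log2 the change from unstimulated cells was 0.78 with IFN-γ (SE 0.15, adjusted p 4.44e-04), −0.21 with *E. coli* (SE 0.15, adjusted p 0.307) and 0.18 with both (adjusted p 0.331). *Mmp9* was higher with IFN-γ than with *E. coli* (0.99, SE 0.15, adjusted p 3.93e-05), and lower with both stimuli than with IFN-γ alone (−0.60, SE 0.15, adjusted p 0.0107). The fall with *E. coli* was called when unstimulated library a, the lowest of its group, was left out (−0.40, adjusted p 0.0273), and the difference between both stimuli and IFN-γ was not called without IFN-γ and *E. coli* library 2 (−0.52, adjusted p 0.0670). Both stimuli against *E. coli* alone gave 0.39 with an adjusted p of 0.0503, and was called higher in 8 of 20 alternatives. The adjusted p was 0.0457 with DESeq2's size factors, 0.0482 in DESeq2, 0.0443 without a filter, 0.0273 with only the 6 libraries compared and 0.00408 with the replicate block. It was 0.0138 without unstimulated library a, 0.0366 without b and 0.0469 without IFN-γ and *E. coli* library 2.

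In the second set *Mmp9* was 146, 229 and 153 CPM in unstimulated libraries d, e and f and 33.0, 38.6 and 36.1 CPM with IL-4. The groups did not overlap, and the IL-4 libraries lay close together. The log2 fold change was −2.37 (SE 0.21, 95% interval −2.83 to −1.91, adjusted p 1.09e-04), a 5.17-fold fall. *Lcn2*, which encodes lipocalin 2, a protein known to bind MMP9 in humans, was 153, 135 and 185 CPM without and 26.6, 32.2 and 32.9 CPM with IL-4. Its groups did not overlap either, and its log2 fold change was −2.42 (SE 0.16, adjusted p 2.63e-05). The 10 neutrophil markers summed to 1990, 1810 and 1680 CPM in unstimulated libraries d, e and f and to 829, 850 and 781 CPM with IL-4. None was at 0 in either group. *Retnlg* alone was 1960, 1790 and 1660 CPM and 785, 807 and 712 CPM in these libraries, so the sums follow that gene. Of the 5 markers tested, *Retnlg* changed by −1.30 in log2 (adjusted p 1.13e-04), while *Cxcr2* rose by 3.09 (adjusted p 2.04e-04). The other values were 0.52 for *Ly6g*, 0.38 for *S100a9* and −0.71 for *S100a8*, none called (adjusted p 0.539, 0.529 and 0.145). The part of neutrophil RNA in the falls of *Mmp8*, *Mmp9* and *Lcn2* was not tested.

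*Mmp14* (ENSMUSG00000000957, chr14:54431612-54445364, plus strand) encodes a protease anchored in the cell membrane that activates the MMP2 proenzyme. Its level was 40.5, 15.4 and 43.4 CPM in unstimulated libraries a, b and c, 46.6, 40.2 and 97.5 CPM with *E. coli*, 21, 23.4 and 12.7 CPM with IFN-γ and 61.7, 70.0 and 45.4 CPM with both. Unstimulated library b was low and *E. coli* library 3 high for its group, and the *E. coli* and unstimulated ranges overlapped, whereas all libraries with both stimuli lay above all unstimulated ones. *Mmp14* had a log2 fold change of 0.86 with *E. coli* (SE 0.32, adjusted p 0.0469), −0.65 with IFN-γ (SE 0.37, adjusted p 0.203, called lower without a filter on low counts with −0.62 and adjusted p 0.0254) and 1.05 with both (SE 0.32, adjusted p 0.0120). The first of these was lost without *E. coli* library 3 (0.35, adjusted p 0.345), unstimulated library b (0.61, adjusted p 0.151) or a (1.00, adjusted p 0.0732), IFN-γ library 1 (0.87, adjusted p 0.0554) or IFN-γ and *E. coli* library 2 (0.87, adjusted p 0.0521). It was also lost with at least 10 counts asked in every library (0.83, adjusted p 0.0633), in a fit of only the 6 libraries compared (0.87, adjusted p 0.0584) and in DESeq2 (0.94, adjusted p 0.119). The rise with both stimuli was lost without IFN-γ and *E. coli* library 2 (0.93, adjusted p 0.0559).

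The larger contrast in *Mmp14* was between IFN-γ with and without *E. coli*. All IFN-γ libraries lay below all libraries with both stimuli and all with *E. coli* alone. The log2 fold change of both stimuli against IFN-γ was 1.69 (SE 0.36, adjusted p 0.00377), and that of IFN-γ against *E. coli* was −1.51 (SE 0.35, adjusted p 0.00312), or −1.0 (adjusted p 0.0155) without *E. coli* library 3. Both stimuli against *E. coli* alone gave 0.19 (adjusted p 0.684), and 0.70 (adjusted p 0.0456) without that library. In the second set *Mmp14* was 16.0, 8.64 and 18.1 CPM in unstimulated libraries d, e and f and 19.3, 20.3 and 25.6 CPM with IL-4. The IL-4 libraries lay above the others, but the log2 fold change of 0.57 (SE 0.26) had an adjusted p of 0.205.

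*Mmp25* (ENSMUSG00000023903, chr17:23628311-23645277, minus strand) encodes leukolysin, a protease held on the surface of leukocytes by a lipid anchor. Its level was 181, 141 and 171 CPM in unstimulated libraries a, b and c, 215, 208 and 232 CPM with *E. coli*, 120, 118 and 100 CPM with IFN-γ and 136, 116 and 136 CPM with both. The *E. coli* libraries lay above and the IFN-γ libraries below every unstimulated library. In log2 the change was 0.43 with *E. coli* (SE 0.11, adjusted p 0.00753), −0.37 with IFN-γ (SE 0.12, adjusted p 0.0224) and −0.10 with both (adjusted p 0.491). IFN-γ against *E. coli* gave −0.80 (SE 0.12, adjusted p 3.49e-05), and both stimuli against *E. coli* gave −0.53 (SE 0.12, adjusted p 0.00167). The fall with IFN-γ was lost without unstimulated library a (−0.32, adjusted p 0.0968) or c (−0.36, adjusted p 0.0591) and without IFN-γ library 2 (−0.36, adjusted p 0.0689) or 3 (−0.30, adjusted p 0.120), and also without a filter on low counts (−0.34, adjusted p 0.0800). With IL-4 *Mmp25* was 99.8, 106 and 106 CPM, beside 111, 125 and 116 CPM in unstimulated libraries d, e and f. These groups did not overlap but lay close together, and the log2 fold change of −0.24 (SE 0.12) had an adjusted p of 0.255.

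*Mmp12* (ENSMUSG00000049723, chr9:7344381-7369499, plus strand) encodes macrophage elastase and *Mmp19* (ENSMUSG00000025355, chr10:128790910-128800824, plus strand) a protease that cuts basement membrane proteins. Both had few counts, and *Mmp12* had 3 to 25 counts in a library. *Mmp12* was 4.96, 1.92 and 3.62 CPM in unstimulated libraries a, b and c and 4.59, 8.63 and 7.56 CPM with IFN-γ and *E. coli*. These groups of *Mmp12* levels overlapped in CPM, but not with the scaling of libraries used in the test (1.9 to 4.47 and 5.11 to 9.31). Its log2 fold change with both stimuli was 1.18 (SE 0.42, adjusted p 0.0244). That call was lost without unstimulated library b (1.00, adjusted p 0.0667) or c (1.16, adjusted p 0.0593) and without IFN-γ and *E. coli* library 2 (1.02, adjusted p 0.108) or 3 (1.13, adjusted p 0.0589). *Mmp12* was not called with *E. coli* (0.93, adjusted p 0.0878), IFN-γ (0.74, adjusted p 0.209) or IL-4 (−0.30, adjusted p 0.677). *Mmp19* was 3.02, 2.56 and 2.53 CPM with *E. coli* and 3.28, 7.61 and 11.6 CPM with both stimuli, groups that did not overlap but of which the latter spread widely. The log2 fold change between them was 1.71 (SE 0.45, adjusted p 0.00645), and it was 1.25 (adjusted p 0.0617) without IFN-γ and *E. coli* library 3. Against unstimulated cells *Mmp19* had no call with both stimuli (0.97, adjusted p 0.0607), and had one (1.32, adjusted p 0.0113) without IFN-γ and *E. coli* library 1. It was not called with *E. coli* (−0.73, adjusted p 0.266) or IFN-γ (0.41, adjusted p 0.516). IFN-γ against *E. coli* gave 1.14 (adjusted p 0.0848), called in a fit of only the 6 libraries compared (1.15, adjusted p 0.0301). Exons of *Mmp19* overlap those of *Tmem198b* and *Gm47093* on the other strand.

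**Figure D2:**
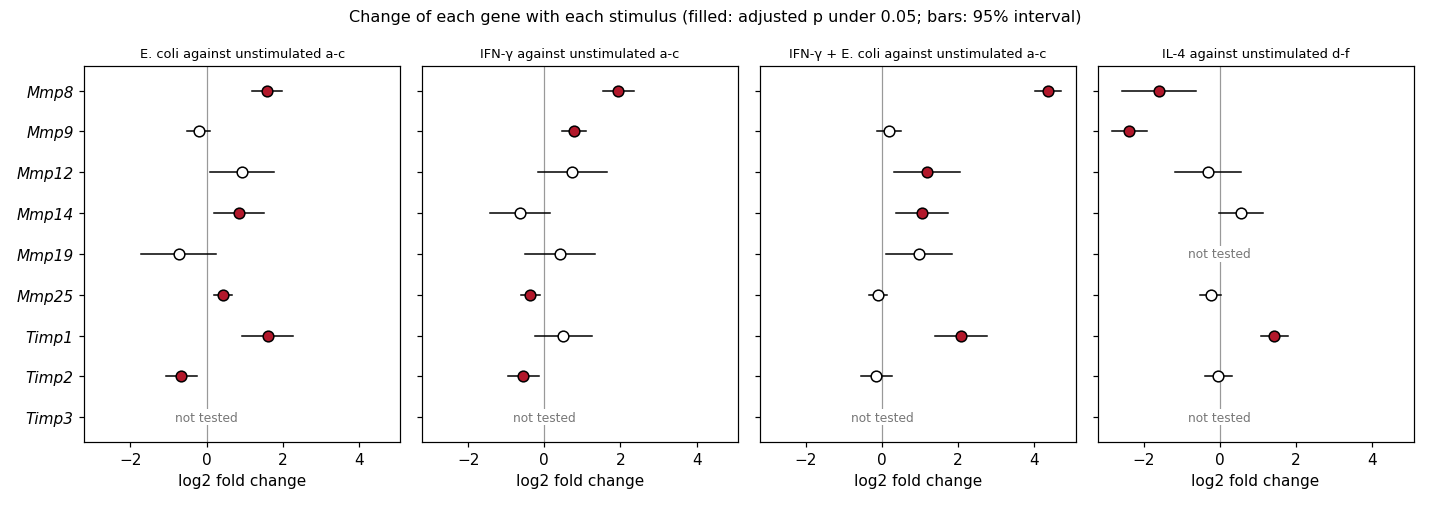
Log2 fold change (horizontal axis) of each gene tested (vertical axis) with each stimulus against unstimulated cells of the same set, with a bar for the 95% interval and filled points where the adjusted p was under 0.05, and *Timp3*, and *Mmp19* with IL-4, marked as not tested. *Mmp8* moves from 4.36 with IFN-γ and *E. coli* to −1.59 with IL-4, whereas *Timp1* lies above 0 in all panels, at 1.61, 0.50, 2.08 and 1.43.

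*Timp1* (ENSMUSG00000001131, chrX:20870166-20874735, plus strand, inside the body of *Syn1* on the other strand) encodes a secreted inhibitor that binds the MMP9 proenzyme as well as active MMPs. In the first set its level was 24.4, 23.7 and 33.9 CPM in unstimulated libraries a, b and c, 62.1, 51.2 and 136 CPM with *E. coli*, 33.3, 35.9 and 33.8 CPM with IFN-γ and 68.9, 89.8 and 132 CPM with both. Every library with *E. coli*, alone or with IFN-γ, lay above every other library, and *E. coli* library 3 was by far the highest of its group. The log2 fold change was 1.61 with *E. coli* (SE 0.32, adjusted p 8.25e-04), or 1.05 (adjusted p 0.00216) without *E. coli* library 3. It was 2.08 with both stimuli (SE 0.32, adjusted p 3.25e-05) and 0.50 with IFN-γ (SE 0.36, adjusted p 0.314), where *Timp1* was called higher without a filter on low counts (0.53, adjusted p 0.0442) and in a fit of only the 6 libraries compared (0.49, adjusted p 0.0482). Both stimuli against IFN-γ gave 1.58 (SE 0.32, adjusted p 0.00257). Both stimuli against *E. coli* gave 0.47 (adjusted p 0.226), and was called with 1.03 (adjusted p 9.34e-04) without *E. coli* library 3 and with 0.43 (adjusted p 0.0347) from all libraries without a filter. IFN-γ against *E. coli* gave −1.11 (SE 0.32, adjusted p 0.0133), and −0.54 (adjusted p 0.101) without that library.

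*E. coli* library 3 also stood out in cell markers. The 6 mast cell markers summed to 10.8, 7.32 and 35.4 CPM in *E. coli* libraries 1, 2 and 3, beside 10.7, 8.32 and 8.14 CPM in unstimulated libraries a, b and c, 29.0, 14.0 and 12.1 CPM with IFN-γ and 32.8, 67.0 and 58.7 CPM with both. *Tpsb2* was the most abundant of them except with both stimuli, where *Cma1* was, and *Fcer1a* was at 0 in unstimulated libraries a to c. The 10 macrophage markers summed to 781, 728 and 1120 CPM in *E. coli* libraries 1, 2 and 3, beside 1250, 1020 and 1210 CPM in unstimulated libraries a, b and c, with *Csf1r* the most abundant and none at 0. They were 1520, 1470 and 1370 CPM with IFN-γ and 1200, 1390 and 1490 CPM with both. Both sums were highest, among the *E. coli* libraries, in the library where *Mmp14* and *Timp1* were highest. *Csf1r* itself differed less, at 407, 386 and 433 CPM in *E. coli* libraries 1, 2 and 3. The macrophage markers moved apart with *E. coli*, from −1.72 in log2 for *Marco* to 0.43 for *Selp*, with 3 of the 10 called lower and 0 higher. With both stimuli they ranged from −1.75 for *Selp* to 1.62 for *Mertk*, with 3 called higher and 2 lower. Of the mast cell markers, 2 were tested. With both stimuli, where *Mmp8*, *Timp1*, *Mmp14* and *Mmp12* were also called higher, *Cma1* changed in log2 by 3.45 (adjusted p 2.62e-05) and *Tpsb2* by 2.65 (adjusted p 1.18e-04). *Tpsb2* changed by 1.51 with IFN-γ (adjusted p 0.0327), where *Cma1* was not called, and neither was called with *E. coli*. The part of mast cells and macrophages in the levels of these genes was not tested.

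In the second set *Timp1* was 49.4, 44.7 and 61.8 CPM in unstimulated libraries d, e and f and 136, 133 and 169 CPM with IL-4. The groups were well apart, and the log2 fold change was 1.43 (SE 0.16, adjusted p 3.93e-04), a 2.7-fold rise. IL-4 thus moved *Mmp9* and this inhibitor in opposite directions. The 10 macrophage markers summed to 2170, 2320 and 2780 CPM in unstimulated libraries d, e and f and 1930, 1840 and 2080 CPM with IL-4, *C1qc* being the most abundant and none at 0. Mast cell markers summed to 8.55, 6.17 and 7.37 CPM and 17.8, 8.12 and 20.9 CPM in the same groups, and 9 mesothelial and fibroblast markers to 39.4, 32.1 and 34.2 CPM and 40.0, 34.7 and 57.5 CPM, with *Col3a1* the most abundant. The 5 dendritic cell markers summed to 5.52, 4.01 and 7.93 CPM and 7.81, 13.7 and 18 CPM, and of the 2 tested *Xcr1* was called higher (1.34, adjusted p 0.0420). The part of these cells in the rise of *Timp1* was not tested. In the first set the mesothelial and fibroblast markers summed to at most 6.61 CPM, and 6 of the 9 were at 0 in unstimulated libraries a to c.

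*Timp2* (ENSMUSG00000017466, chr11:118301069-118355740, minus strand) encodes an inhibitor that also helps MMP14 to activate the MMP2 proenzyme. Its level was 139, 96.0 and 118 CPM in unstimulated libraries a, b and c, 65.6, 67.7 and 88.4 CPM with *E. coli*, 82.3, 78.3 and 53.2 CPM with IFN-γ and 59.1, 100 and 106 CPM with both. Each single stimulus lay below unstimulated cells without overlap, and the libraries with both stimuli overlapped all other groups. For *Timp2* the log2 fold change was −0.66 with *E. coli* (SE 0.19, adjusted p 0.0131), −0.55 with IFN-γ (SE 0.20, adjusted p 0.0374) and −0.16 with both (adjusted p 0.524). The call with *E. coli* was lost without unstimulated library a (−0.54, adjusted p 0.0847) or *E. coli* library 1 (−0.57, adjusted p 0.0648) or 2 (−0.57, adjusted p 0.0716). The call with IFN-γ was lost without unstimulated library a (−0.44, adjusted p 0.173) or c (−0.57, adjusted p 0.0680) and without IFN-γ library 2 (−0.58, adjusted p 0.0708) or 3 (−0.38, adjusted p 0.199), and also in DESeq2 (−0.53, adjusted p 0.0555). Without IFN-γ and *E. coli* library 1, the lowest with both stimuli, *Timp2* was higher with both than with IFN-γ (0.61, adjusted p 0.0409) and than with *E. coli* (0.72, adjusted p 0.00518), where all libraries gave 0.40 (adjusted p 0.231) and 0.50 (adjusted p 0.0576). The latter was also called without *E. coli* library 3 (0.67, adjusted p 0.0176) or IFN-γ library 3 (0.51, adjusted p 0.0492), and from all libraries with DESeq2's size factors (0.52, adjusted p 0.0491) or without a filter (0.47, adjusted p 0.0168). With IL-4 *Timp2* was 119, 107 and 131 CPM, within the 90.2 to 142 CPM of unstimulated libraries d to f. Its log2 fold change there was −0.04 (95% interval −0.39 to 0.31, adjusted p 0.910).

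*Timp3* (ENSMUSG00000020044, chr10:86300372-86349506, plus strand) encodes an inhibitor that stays bound to the matrix and also blocks ADAM proteases. It had 1 count in unstimulated library b, 1 in IFN-γ and *E. coli* library 2, 1 in unstimulated library f and 5 in IL-4 library 3, and 0 in every other library. Only IL-4 library 3 passed the floor of 3 counts, so no fold is given. Its exons overlap those of *Syn3* on the other strand.

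The interaction asked whether the effect of both stimuli departed from the sum of their separate log2 effects. It was called for 1 of the 8 genes, beside 4.62% of all genes tested, and the median over the 8 genes was 0.40 beside 0.00. The 457 calls over all genes fell to 266 without unstimulated library a and to 286 and 270 without *E. coli* library 1 and 2. They were 294 without IFN-γ and *E. coli* library 2, and rose to 562 without *E. coli* library 3. The member called was *Timp2*, with an interaction of 1.06 (SE 0.28, adjusted p 0.0327): *E. coli* changed it by −0.66 in log2 without IFN-γ and by 0.40, which was not called, with it. Leaving out a library ended the call in 8 of 12 cases, with values of 0.94 and 1.07 (adjusted p 0.117 and 0.0592) without unstimulated library a and c, 0.97 and 0.96 (0.1 and 0.108) without *E. coli* library 1 and 2, 1.08 and 0.89 (0.0610 and 0.102) without IFN-γ library 2 and 3, and 0.97 and 0.87 (0.106 and 0.0601) without IFN-γ and *E. coli* library 2 and 3. For *Mmp8* the interaction was 0.83 (95% interval 0.31 to 1.35, adjusted p 0.0661), and it was called without IFN-γ library 2 (0.97, adjusted p 0.0377) and with the ceiling correction chosen after seeing the data (0.88, adjusted p 0.0497). For *Mmp14* it was 0.83 (adjusted p 0.414), and without *E. coli* library 3 it was 1.34 (adjusted p 0.0403). The other values were −0.39 for *Mmp9*, −0.49 for *Mmp12*, 1.30 for *Mmp19*, −0.16 for *Mmp25* and −0.03 for *Timp1*, with adjusted p-values from 0.309 to 0.987.

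B cell markers moved with *Timp2* in the first set. The 6 markers summed to 241, 198 and 128 CPM in unstimulated libraries a, b and c, 43.1, 48.6 and 78.3 CPM with *E. coli*, 96.3, 59.8 and 53.8 CPM with IFN-γ and 109, 124 and 113 CPM with both. Each single stimulus was below unstimulated cells, and the libraries with both stimuli lay between. *Ighm* was the most abundant in every group and none was at 0, although the purification removes cells with B220. In the interaction 5 of 5 tested B cell markers were called higher, with a median of 2.68. In the second set, where *Timp2* was not called, they summed to 24.8, 22.1 and 43.4 CPM in unstimulated libraries d, e and f and to 66.0, 59.7 and 72.4 CPM with IL-4. The part of B cell RNA in the levels of *Timp2* was not tested.

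How far the response to IL-4 departed from that to the joint stimulus was tested as a difference of log2 fold changes, each relative to the unstimulated cells of the same set. *Mmp19* entered this fit of both sets but was too low in the second set to be tested there, so its difference is not given. Of the other 7 genes tested, 3 were called, beside 39.2% of all 10671 genes tested, all 3 with the lower value for IL-4. The difference in log2 fold change was −6.02 for *Mmp8* (SE 0.41, adjusted p 2.42e-10), or −5.40 without unstimulated library f, and −2.61 for *Mmp9* (SE 0.26, adjusted p 6.53e-08). For *Mmp12* it was −1.56 (SE 0.56, adjusted p 0.0305), a call lost without unstimulated library b (−1.36, adjusted p 0.0690), c (−1.55, adjusted p 0.0551) or f (−1.41, adjusted p 0.0670), IFN-γ and *E. coli* library 2 (−1.38, adjusted p 0.0887) or 3 (−1.46, adjusted p 0.0687), or IL-4 library 1 (−1.53, adjusted p 0.0532) or 2 (−1.36, adjusted p 0.0726), and also without a filter on low counts (−1.52, adjusted p 0.0905). *Timp1* rose in both responses, with a difference of −0.70 (adjusted p 0.173) that was called without *E. coli* library 3 (−0.71, adjusted p 0.0472) and without a filter (−0.67, adjusted p 0.0410). The difference was 0.06 for *Timp2*, −0.20 for *Mmp25* and −0.55 for *Mmp14*, with adjusted p-values of 0.896, 0.349 and 0.383.

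Another 18 MMP and TIMP genes make up the rest of the family in the list used here. In each set 2 of the 18 were tested, *Mmp13* and *Mmp27*. *Mmp13*, a collagenase, was 17.4, 7.04 and 11.8 CPM in unstimulated libraries a, b and c, 81.5, 104 and 193 CPM with *E. coli*, 11.3, 15.5 and 11.5 CPM with IFN-γ and 27.6, 32.0 and 51.2 CPM with both. The *E. coli* libraries lay highest and those with both stimuli next, while IFN-γ libraries lay among the unstimulated ones. Its change in log2 was 3.35 with *E. coli* (SE 0.33, adjusted p 3.90e-07), a 10.2-fold rise, and 1.81 with both (SE 0.37, adjusted p 5.38e-04). Both stimuli against *E. coli* alone gave −1.54 (SE 0.29, adjusted p 4.32e-04), while the interaction of −1.74 (SE 0.53) had an adjusted p of 0.0716. With IL-4 *Mmp13* was 21.5, 23.2 and 16.5 CPM, above the 4.14, 6.63 and 8.88 CPM of unstimulated libraries d, e and f, and its log2 fold change was 1.55 (SE 0.28, adjusted p 0.00594).

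*Mmp27*, next to *Mmp8* on the chromosome, was 16.9, 12.8 and 19.9 CPM in unstimulated libraries a, b and c, 20.7, 25.6 and 19.2 CPM with *E. coli*, 53.8, 60.3 and 56.2 CPM with IFN-γ and 112, 91.3 and 78.5 CPM with both. The IFN-γ libraries lay above the unstimulated and the *E. coli* libraries, and those with both stimuli above all others of the set. *Mmp27* had a log2 fold change of 1.93 with IFN-γ (SE 0.18, adjusted p 1.62e-07) and 2.73 with both (SE 0.17, adjusted p 3.17e-10), and with *E. coli* alone it was 0.41 (adjusted p 0.126). With IL-4 it was −0.72 (adjusted p 0.253). *Mmp3*, named here after its values were seen, had 0 counts in unstimulated libraries a, b and c, 10, 13 and 29 with *E. coli*, 1, 0 and 1 with IFN-γ and 1, 3 and 2 with both. It was below the filter and was not tested, and against the floor of 3 counts in each library it was at least 5.34-fold higher with *E. coli* than without, and at least 3.91-fold lower with both stimuli than with *E. coli*. Without *E. coli* library 3, the highest, these bounds were 2.97-fold and 2.17-fold.

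*Mmp8* and *Mmp12* lie in a cluster of 10 MMP genes that spans 427.1 kb of chromosome 9, chr9:7272514-7699585. The order is *Mmp13*, *Mmp12*, *Mmp1b*, *Mmp3*, *Mmp1a*, *Mmp10*, *Mmp8*, *Mmp27*, *Mmp20* and *Mmp7*, and *Mmp1b* is on the minus strand with exons that overlap those of *Mmp12*. *Mmp1b* had 0 counts in every library of the first set. Of the 10 genes, *Mmp13*, *Mmp12*, *Mmp3*, *Mmp8* and *Mmp27* had over 3 counts in every library of at least 1 stimulated group. Their levels followed different stimuli along the cluster, in that *Mmp13* and *Mmp3* were highest with *E. coli* and lower when IFN-γ was added, and *Mmp8* and *Mmp27* were highest with both stimuli. *Mmp12*, which lies between *Mmp13* and *Mmp3*, was not called with *E. coli* (0.93, adjusted p 0.0878). Its change for both stimuli against *E. coli* alone was 0.25 (adjusted p 0.641). Neighbours *Mmp8* and *Mmp27* were both called higher with IFN-γ.

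**Figure D3:**
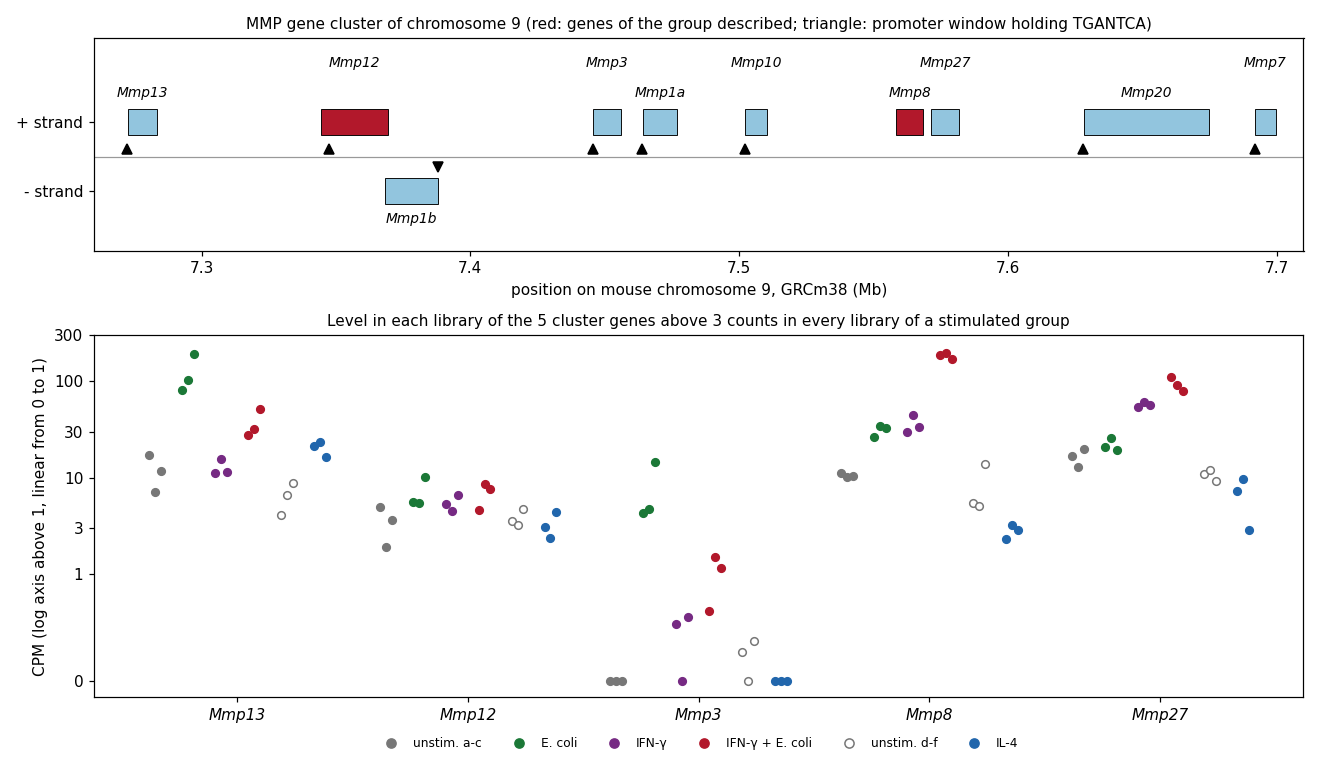
Map of the 10 MMP genes on chromosome 9 (upper panel; horizontal axis in Mb of GRCm38, drawn to scale, genes of each strand on their own line, triangles at promoter windows that hold TGANTCA) and level in CPM of 5 of them in each library (lower panel; log axis above 1, linear from 0 to 1, a point for a library). Windows of *Mmp8* and *Mmp27* hold no such match, and these genes reach 171 to 195 and 78.5 to 112 CPM with IFN-γ and *E. coli*.

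Promoter windows from RefSeq (GRCm38.p6), 250 bases before to 50 after a gene's start, were searched on both strands for 4 motifs, and a match is only a description of the letters. Windows were found for 7 of the 9 genes, with none for *Mmp9* and *Mmp19*, and for 15 of the other 18. TGANTCA, the AP-1 motif, is held by 7.81% of all 32851 windows of the table, a kappa-B like motif, GGG followed by CC after any 5 bases, by 50.8%, TTCNNNGAA (GAS) by 8.30% and the ISRE motif, GAAA and GAAA with any 2 bases between, by 3.44%. TGANTCA was in at least 1 window of 8 of the 10 cluster genes, all but *Mmp8* and *Mmp27*, and of 0 of 12 MMP and TIMP genes outside the cluster. These are counts of genes, whereas the shares above are of windows. *Mmp12* and *Mmp7* have 2 windows each, and only 1 of each holds the motif. Among the 9 genes it was in 1, *Mmp12*, in the second of its windows, which lies inside the gene. The first *Mmp12* window, which spans the annotated start of the gene, holds no match. The kappa-B like motif was in windows of 6 of the 7, all but *Mmp8*, and the GAS and ISRE motifs were in 0. The windows of the 5 cluster genes with over 3 counts are printed, since they lie in the same cluster and their levels followed different stimuli. Capitals mark TGANTCA, which begins 35 bases before the start in *Mmp13*, 44 in *Mmp12* and 46 in *Mmp3*. *Mmp13* also holds the ISRE motif on the minus strand, 146 bases before the start. All are on the plus strand, at chr9:7272264-7272563 for *Mmp13*, chr9:7347124-7347423 for *Mmp12*, chr9:7445572-7445871 for *Mmp3*, chr9:7558179-7558478 for *Mmp8* and chr9:7571146-7571445 for *Mmp27*.
Mmp13: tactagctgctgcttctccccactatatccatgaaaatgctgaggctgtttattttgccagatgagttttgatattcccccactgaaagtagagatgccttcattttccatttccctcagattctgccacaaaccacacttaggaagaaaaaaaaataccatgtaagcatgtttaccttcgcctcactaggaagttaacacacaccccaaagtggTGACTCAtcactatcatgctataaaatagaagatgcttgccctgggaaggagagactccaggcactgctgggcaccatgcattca
Mmp12: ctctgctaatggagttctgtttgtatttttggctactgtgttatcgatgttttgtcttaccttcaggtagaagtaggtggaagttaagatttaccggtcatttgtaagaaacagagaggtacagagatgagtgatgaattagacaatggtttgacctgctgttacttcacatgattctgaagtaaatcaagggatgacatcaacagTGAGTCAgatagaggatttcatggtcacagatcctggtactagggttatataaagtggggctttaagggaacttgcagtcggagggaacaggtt
Mmp3: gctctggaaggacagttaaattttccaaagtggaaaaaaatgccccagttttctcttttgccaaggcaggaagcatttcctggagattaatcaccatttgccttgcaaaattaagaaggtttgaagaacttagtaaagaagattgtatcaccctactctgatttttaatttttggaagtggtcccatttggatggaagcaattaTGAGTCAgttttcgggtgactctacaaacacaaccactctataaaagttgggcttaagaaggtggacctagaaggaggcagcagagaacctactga
Mmp8: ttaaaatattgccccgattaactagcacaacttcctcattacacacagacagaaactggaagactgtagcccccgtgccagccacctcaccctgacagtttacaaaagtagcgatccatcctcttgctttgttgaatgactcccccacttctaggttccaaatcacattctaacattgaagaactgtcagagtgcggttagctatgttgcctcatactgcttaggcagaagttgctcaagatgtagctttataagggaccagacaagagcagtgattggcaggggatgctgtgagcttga
Mmp27: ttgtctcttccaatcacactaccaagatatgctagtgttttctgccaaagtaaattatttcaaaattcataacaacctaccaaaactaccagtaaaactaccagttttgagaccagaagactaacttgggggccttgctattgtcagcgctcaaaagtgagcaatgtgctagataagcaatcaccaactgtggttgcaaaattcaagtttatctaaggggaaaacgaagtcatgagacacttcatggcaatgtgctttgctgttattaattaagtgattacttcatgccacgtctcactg

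Proteins that activate, bind or restrain MMPs formed a list of 19 genes, of which 10 were tested in each set. *E. coli* had 7 called higher and 1 lower. The counts were 5 and 1 for IFN-γ, 8 and 0 for the joint stimulus and 0 and 3 for IL-4. Of all genes tested, 13.5% were called higher and 16.7% lower with *E. coli*, 15.6% and 16.0% with IFN-γ, 23.9% and 25.2% with both, and 5.97% and 4.35% with IL-4. The median log2 fold changes of the list were 0.52, 0.37, 0.87 and −0.08, beside −0.02, −0.03, −0.04 and 0.00 for all genes. *Plaur*, the receptor of urokinase, which makes plasmin and so activates MMPs, had log2 fold changes of 1.68 with *E. coli* (SE 0.11, adjusted p 1.40e-09) and 1.91 with both (SE 0.11, adjusted p 6.34e-11). *Bsg*, a surface protein that induces MMPs in other cells, had 1.13 with IFN-γ (SE 0.11, adjusted p 4.37e-07) and 1.57 with both (SE 0.12, adjusted p 2.19e-09). *Lcn2* had 1.64 with *E. coli* (SE 0.24, adjusted p 3.08e-05) and −1.30 with IFN-γ (SE 0.26, adjusted p 8.97e-04), the reverse of the order seen for *Mmp9*. With IL-4, besides *Lcn2*, *Serpinb2* had −0.91 (SE 0.13, adjusted p 0.00227) and *Itgb2* −0.52 (SE 0.14, adjusted p 0.0370), the latter lost without IL-4 library 1, 2 or 3 (−0.51, −0.54 and −0.53, adjusted p 0.146, 0.121 and 0.119).

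The ADAM and ADAMTS proteases, relatives of MMPs that TIMPs also inhibit in part, formed a list of 14 genes, of which 8 were tested in each set. *E. coli* had 3 called higher and 1 lower. The counts were 1 and 1 for IFN-γ, 1 and 1 for the joint stimulus and 1 and 2 for IL-4, and the median log2 fold changes were 0.17, 0.16, −0.06 and −0.17, beside −0.02, −0.03, −0.04 and 0.00 for all genes. Of all genes, 13.5% and 16.7% were called higher and lower with *E. coli*, 15.6% and 16.0% with IFN-γ, 23.9% and 25.2% with both, and 5.97% and 4.35% with IL-4. With IFN-γ and with both stimuli the list thus had no larger a share called, in either direction, than all genes. *Adam17*, which sheds TNF from the cell surface and is blocked by TIMP3, had log2 fold changes of 1.01 with IFN-γ (SE 0.13, adjusted p 5.51e-06) and 1.16 with both stimuli (SE 0.13, adjusted p 4.69e-07). *Adam10* had 0.64 with *E. coli* (SE 0.13, adjusted p 9.22e-04) and *Adam19* 0.58 (SE 0.15, adjusted p 0.00611). *Adamdec1* had −1.85 with *E. coli* (SE 0.51, adjusted p 0.00979), lost without unstimulated library a (−1.33, adjusted p 0.112) or *E. coli* library 2 (−1.62, adjusted p 0.0586), and 1.26 with IL-4 (SE 0.29, adjusted p 0.0213), lost without unstimulated library f (1.10, adjusted p 0.0737) or IL-4 library 2 (0.97, adjusted p 0.131) or 3 (1.33, adjusted p 0.0582). *Adamts10* had −1.83 with both stimuli (SE 0.49, adjusted p 0.00474). The calls of *Adamts10* with IFN-γ (−1.18, adjusted p 0.0472) and of *Adam15* (−0.79, adjusted p 0.0372) and *Adam8* (−0.44, adjusted p 0.0412) with IL-4 were each lost in most fits without a library of the groups compared, with values of −1.60 to −0.96, −0.93 to −0.56 and −0.53 to −0.36 over the alternatives. That of *Adamts10* was also lost with DESeq2's size factors (−1.16, adjusted p 0.0503) and in DESeq2 (−1.14, adjusted p 0.115).

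Of 12 genes for matrix proteins, 3 were tested in the first set and 9 in the second. In the first set 1 of the 3 was called higher and 1 lower with *E. coli*, and the same counts were found with IFN-γ and with the joint stimulus, at medians of −1.12, −0.38 and −0.25, beside −0.02, −0.03 and −0.04 for all genes. The shares of all genes called higher and lower were 13.5% and 16.7%, 15.6% and 16.0%, and 23.9% and 25.2%, and 3 genes are too few to set against them. *Thbs1*, which encodes thrombospondin 1, had 1.84 with *E. coli* (SE 0.16, adjusted p 7.16e-08), 2.17 with IFN-γ (SE 0.16, adjusted p 6.52e-09) and 3.09 with both (SE 0.16, adjusted p 2.71e-11). Counts of *Thbs1* reached 3583 in the first set, near the highest count of any gene, and a correction for such a ceiling, chosen after seeing the data, gave 2.24, 2.53 and 4.07. *Fn1*, which encodes fibronectin, had −1.59 with *E. coli* (SE 0.28, adjusted p 2.88e-04). *Vcan*, which encodes versican, had −1.74 with IFN-γ (SE 0.56, adjusted p 0.0226), lost without unstimulated library a (−1.61, adjusted p 0.0843) or c (−1.45, adjusted p 0.0957) or IFN-γ library 2 (−1.51, adjusted p 0.0931) or 3 (−1.69, adjusted p 0.0695), and also in DESeq2 (−1.70, adjusted p 0.0605). With both stimuli it had −1.73 (SE 0.57, adjusted p 0.0172), and −2.70 (adjusted p 0.00896) without IFN-γ and *E. coli* library 2. This call was lost without unstimulated library a (−1.60, adjusted p 0.0597) or c (−1.45, adjusted p 0.0772) or IFN-γ and *E. coli* library 1 (−1.54, adjusted p 0.0588) or 3 (−1.32, adjusted p 0.0756). With IL-4, at a median of −0.40 beside 0.00 for all genes, 0 of the 9 matrix genes were called higher and 2 lower, beside 5.97% and 4.35% of all genes. They were *Thbs1* (−0.65, adjusted p 0.0278) and *Fn1* (−0.63, adjusted p 0.0175), and both calls were lost without unstimulated library f (−0.54 and −0.54, adjusted p 0.0909 and 0.0621) or IL-4 library 1 (−0.70 and −0.68, adjusted p 0.0854 and 0.0648), 2 (−0.74 and −0.64, adjusted p 0.0631 and 0.0837) or 3 (−0.52 and −0.60, adjusted p 0.1 and 0.0772).

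The genes whose log2 CPM followed a member most closely over the 12 libraries of the first set are given as a description. The points share their groups, so the correlation reflects the differences between the 4 groups. Among 7922 genes *Mmp8* was followed most closely by *Stx11* (Pearson r 0.991), *B4galt5* (0.987) and *Plbd1* (0.981). *Timp1* was followed by *Serf1* (0.984), *Nupr1* (0.982) and *Slpi* (0.977). For *Mmp9* they were *Rpl5* (0.929), *Prkcq* (0.927) and *Rab18* (0.914), and for *Mmp25* *Cdk5r1* (0.939), *Creb5* (0.937) and *Exoc3* (0.937). For *Mmp14* they were *AC160336.1* (0.924), *Pim1* (0.904) and *Rwdd4a* (0.901), and for *Mmp12*, at its low counts, *Fzd1* (0.929), *Arhgap23* (0.917) and *Naa25* (0.914). *Timp2* was followed by *Igsf8* (0.917) and by the B cell genes *Blnk* (0.868) and *Igkc* (0.850). Between members, over the same 12 libraries, r was 0.79 for *Mmp12* and *Timp1*, 0.76 for *Mmp8* and *Timp1*, 0.76 for *Mmp14* and *Timp1*, −0.78 for *Mmp9* and *Mmp25* and 0.02 for *Timp1* and *Timp2*.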

How the data were processed

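The deposited values are whole counts per Ensembl gene. The submitters' notes name fastp 0.20.1, STAR 2.7.2a, TopHat2 2.1.0 and HTSeq 0.6.1, without saying which libraries each served, and CEL-Seq libraries for some samples. Whether molecular identifiers were collapsed is not stated. R 4.3.3 with edgeR 4.0.16 (filterByExpr, TMM, quasi-likelihood test, Benjamini-Hochberg over all genes tested) fitted 12 libraries of the first set and 6 of the second, and all 18 for the difference between responses. Standard errors were derived from the F statistic and are approximate. Positions are from GENCODE M21. The 9 genes, the gene lists and the alternatives were chosen with earlier results of these data known. List genes are named where called with a stimulus and among the 3 largest changes of their list, and not all such genes are described. Genes of like pattern have a mean of at least 10 CPM (prior count 2).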

Additional observations from a re-analysis of the deposited data

Results flagged for a closer look

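*Timp2* drew attention because the test of its interaction was called: its response to *E. coli* was −0.66 in log2 without IFN-γ (adjusted p 0.0131) and 0.40 with it, where it was not called (adjusted p 0.231), and the difference was 1.06 with an adjusted p of 0.0327 in edgeR's quasi-likelihood test. Over all alternatives tried the value stayed between 0.87 and 1.24 and the adjusted p between 4.11e-04 and 0.117. The sum of the B cell markers was also lowest with each single stimulus, and its part in the interaction was not tested.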

How the results depend on the processing

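The alternatives were DESeq2's size factors, DESeq2 itself (1.42.0), a minimum of 10 counts in each library, leaving low genes in, asking also for a factor of 2, fitting only the groups compared, dropping each library in turn, and the replicate block. After the data had been seen, a correction of the first set for identifier occupancy was added, since the highest counts of its libraries lie so close together. No result changed direction past the threshold.

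The number of members called was 5 with *E. coli* (4 to 5 when a library was left out), and 2 where a factor of 2 was also asked. With IFN-γ it was 4 (2 to 4), and 1 with that factor. With both stimuli it was 4 (2 to 5), and for both against IFN-γ 4 (3 to 5). For both against *E. coli* it was 3 (2 to 6), with 5 under DESeq2's size factors and 6 without a filter. For IFN-γ against *E. coli* it was 4 (3 to 5), and 2 with the factor of 2. The interaction had 1 (0 to 2), and 2 with the occupancy correction, which added *Mmp8* (0.88, adjusted p 0.0497, range over alternatives 0.0377 to 0.185). IL-4 had 3 (2 to 3), and the difference of the IL-4 response 3 (2 to 4). Asking for a factor of 2 removes small changes by construction. For the other changes the cause was not tested.

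For single genes, leaving out a library kept the call in 800 of 858 values for members, with 43 calls lost and 15 gained, and in 325 of 366 for the other genes named, with 41 lost. Other alternatives kept it in 440 of 470 and 208 of 219. Calls held in every alternative for *Mmp8* with *E. coli* (1.53 to 1.69), IFN-γ (1.80 to 2.08) and both (4.30 to 4.43), *Timp1* with *E. coli* (1.05 to 1.90), both (1.79 to 2.29) and IL-4 (1.30 to 1.55), and *Mmp9* with IL-4 (−2.51 to −2.09). *Mmp14* with *E. coli* was lost under DESeq2 (0.94, adjusted p 0.119), with at least 10 counts in each library (0.83, adjusted p 0.0633) and with only the 6 libraries compared (0.87, adjusted p 0.0584), over a range of 8.22e-06 to 0.345.

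Residuals of same-numbered libraries of different groups had r of −0.045 to 0.331, over 0.1 in 4 of 9 pairs, and 2 of 9 libraries matched their own number best in both other groups. With the replicate block, 4, 4 and 4 members were called for both stimuli against IFN-γ, both against *E. coli* and IFN-γ against *E. coli*, and a fit of the same 9 libraries without it also called 4, 4 and 4, where the fit of 12 libraries had 4, 3 and 4. Over all genes the block raised the calls from 1153 to 1430, 3178 to 3447 and 2475 to 2750 on those 9 libraries. With the block *Mmp9* in the second of these was 0.38 (adjusted p 0.00408, range over alternatives 0.00408 to 0.179).

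The main limits are 3 libraries in a group, unknown origin of replicates, and depth: *Timp3* lay at or under 3 counts in all libraries but 1 and could not be tested, and *Mmp12* and *Mmp19* had few counts. The sets differ in layout and in their highest counts, so levels cannot be compared between them. RNA levels say nothing of protein, secretion or activity, and proportions of cell types are not given for each library. Leaving a library out keeps a group of 2, assumed to vary like the others.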
